A study of Mus musculus with 6 samples.

Results

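A set of 10 genes that make, carry or act on lactate and lactyl marks was followed in mouse hind leg muscle after treadmill training. They were chosen by name for their known roles, with earlier results of these data known. The set holds the lactate dehydrogenase genes Ldha, Ldhb and Ldhd, and the carrier genes Slc16a1 and Slc16a3 with the carrier chaperone gene Bsg. It also holds the acyltransferase gene Ep300 and the deacylase genes Hdac3, Sirt1 and Sirt3. These are 10 of the 16759 genes listed in the expression table, and all 10 were among the 10883 that entered the test, where the mean over the libraries had to reach 1 FPKM (fragments per kilobase of transcript, scaled to library depth). RNA was sequenced from the muscle of 3 untrained control mice (Con) and 3 trained mice (EX), with 1 library per mouse. All were male C57BL/6J mice with no transgene, aged 8 weeks at the start. EX mice ran for 60 min on 5 days a week over 6 weeks, and their muscle was taken 24 h after their final run; the timing for Con mice was not stated. The sources do not say which of the hind leg muscles were taken, the mice were perfused with phosphate-buffered saline, and intermuscular fat was removed.

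Glycolysis yields pyruvate, which lactate dehydrogenase turns into lactate while restoring NAD+, and the reaction runs both ways. The enzyme is a tetramer of the LDHA (muscle) and LDHB (heart) subunits, and lactate crosses the membrane with a proton through the monocarboxylate carriers MCT1 (Slc16a1) and MCT4 (Slc16a3), which need basigin (Bsg) to reach the surface. Lactate is also the source of the lactyl group placed on lysines of histones and other proteins, an acylation that the acetyltransferase p300 (Ep300) can write and that HDAC1 to HDAC3 and some sirtuins can remove.

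The libraries held between 13845362 and 16240431 estimated counts, with Con 1 the shallowest, so that 3 counts corresponded to between 0.188 and 0.215 CPM (counts scaled to one library size). Con 1 also stood apart from the other Con libraries. Over all genes tested, the chi-square of counts per degree of freedom was 3.43 and 4.18 between Con 1 and Con 2 or Con 3. It was 1.78 between Con 2 and Con 3 and 1.89 to 2.36 between EX libraries. The members lay far above the floor of 3 counts: the least abundant, Sirt1, had between 189 and 284 counts. Of a list of 6 muscle fibre markers, 1 rose and 1 fell, and their summed level was 135300 to 143000 CPM in Con and 144700 to 152400 CPM in EX, so the muscle label held. Other cell markers moved with the groups. All 6 slow fibre markers rose, with a summed level of 45.6 to 51.0 CPM in Con and 229.8 to 259.2 CPM in EX, and Myh7, the slow myosin heavy chain, lay between 0.891 and 1.19 CPM in Con and between 96.7 and 110.6 CPM in EX. Adipocyte markers (4 of 4 tested rose) summed to 14.1 to 15.3 CPM in Con and 34.8 to 39.3 CPM in EX, and macrophage markers (3 of 4 rose) to 33.3 to 38.2 CPM and 58.1 to 63.3 CPM. Endothelial markers (4 of 6 fell) summed to 629.8 to 647.4 CPM in Con and 547.0 to 565.6 CPM in EX, and Schwann cell markers (3 of 4 fell) to 99.7 to 111.0 CPM and 76.8 to 82.2 CPM. Of the erythroid markers 1 of 4 tested rose, with sums of 199.1 to 216.4 CPM and 217.6 to 236.6 CPM, and the membrane marker Slc4a1 had at most 3 counts in any library; among the adipocyte markers Lep was at 0 in 1 library. In bulk tissue, fewer cells of a type and less RNA per cell cannot be told apart, and the part of these shifts in the results below was not tested. As the muscles taken were not stated, training and a group difference in the muscle sampled cannot be told apart either.

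Sequences upstream of the starts of 4 members are shown because the dehydrogenase and carrier genes are known targets of factors that read short motifs there, and because Ldha and Ldhb moved in opposite directions. Each is the 250 bases before a RefSeq start on the gene's own strand in GRCm38.p6, with matches to ACGTG (the core of the hypoxia response element), CACGTG (the E-box, which contains ACGTG) and AGGTCA (the core hexamer of nuclear receptor sites), on either strand, in capitals. The windows are chr7:46845554-46845803 (+ strand) for Ldha, chr6:142507958-142508207 (- strand) for Ldhb, chr3:104638414-104638663 (+ strand) for Slc16a1 and chr11:120948817-120949066 (+ strand) for Slc16a3.
Ldha: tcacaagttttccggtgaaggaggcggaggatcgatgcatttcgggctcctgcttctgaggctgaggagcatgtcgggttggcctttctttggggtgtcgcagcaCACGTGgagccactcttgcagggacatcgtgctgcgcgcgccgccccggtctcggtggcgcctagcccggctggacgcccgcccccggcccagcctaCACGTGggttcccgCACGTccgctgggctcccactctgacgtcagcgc
Ldhb: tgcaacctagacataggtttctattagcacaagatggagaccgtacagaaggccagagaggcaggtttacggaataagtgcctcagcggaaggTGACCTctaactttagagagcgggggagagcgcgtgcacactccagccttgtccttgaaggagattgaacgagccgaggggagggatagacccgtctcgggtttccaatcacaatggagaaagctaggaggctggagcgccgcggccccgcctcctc
Slc16a1: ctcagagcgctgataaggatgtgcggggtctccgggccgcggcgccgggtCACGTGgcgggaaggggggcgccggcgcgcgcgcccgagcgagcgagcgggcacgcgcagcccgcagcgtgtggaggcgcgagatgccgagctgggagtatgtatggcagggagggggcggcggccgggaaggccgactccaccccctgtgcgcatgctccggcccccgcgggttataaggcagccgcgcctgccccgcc
Slc16a3: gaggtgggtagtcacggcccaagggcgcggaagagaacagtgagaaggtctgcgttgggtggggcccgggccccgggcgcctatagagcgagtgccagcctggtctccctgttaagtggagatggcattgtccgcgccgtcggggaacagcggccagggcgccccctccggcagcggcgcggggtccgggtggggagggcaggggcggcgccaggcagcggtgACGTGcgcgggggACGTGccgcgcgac

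Ldha, whose product is the muscle subunit, held 3 stretches with ACGTG, of which 2 were CACGTG, lying 145 to 140, 48 to 43 and 34 to 30 bases before the start. A window before another Ldha start held none. Ldhb held no ACGTG and 1 AGGTCA, 157 to 152 bases before the start. Slc16a1 held 1 CACGTG at 200 to 195 bases, and Slc16a3 held 2 ACGTG at 27 to 23 and 14 to 10 bases. Over 32851 windows of the same length, 16.6% held at least 1 stretch with ACGTG, 1.95% at least 2 and 0.256% at least 3. CACGTG was found in 6.02% and AGGTCA in 14.0%. These windows were not matched for GC content. GC made up 67.2% of the Ldha window shown, 56.4% of Ldhb, 76.4% of Slc16a1 and 73.6% of Slc16a3. The median over all windows was 52.4%. The motif search covered 8 members: RefSeq gave no window for Bsg, and Hdac3 was left out of the search. Of those not shown, Ldhd held 1 CACGTG and Sirt1 held 2, and none of the motifs was found for Ep300 or Sirt3. A match is a description of letters, not of a bound site.

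The first question was whether the RNA level of these genes differed between EX and Con, 24 h after the last run of the EX mice. Of the 10 members 4 passed edgeR's quasi-likelihood test at an adjusted p under 0.05: Ldha and Slc16a3 rose, Ldhb and Ep300 fell, and 6 did not pass. Without Con 1 the same 4 passed, and Bsg with them. Among all genes tested 17.9% passed, 9.11% higher and 8.80% lower in EX. In 4 members the 3 EX values in CPM did not overlap the 3 Con values (Ldha, Ldhb, Ep300 and Hdac3), against 33.7% of all genes tested. The median absolute log2 fold change was 0.105 over the members and 0.0975 over all genes tested, and 2.89% of all genes tested moved further than Ldhb. The changes of the other 9 members were below 0.2 on the log2 scale.

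**Figure D1:**
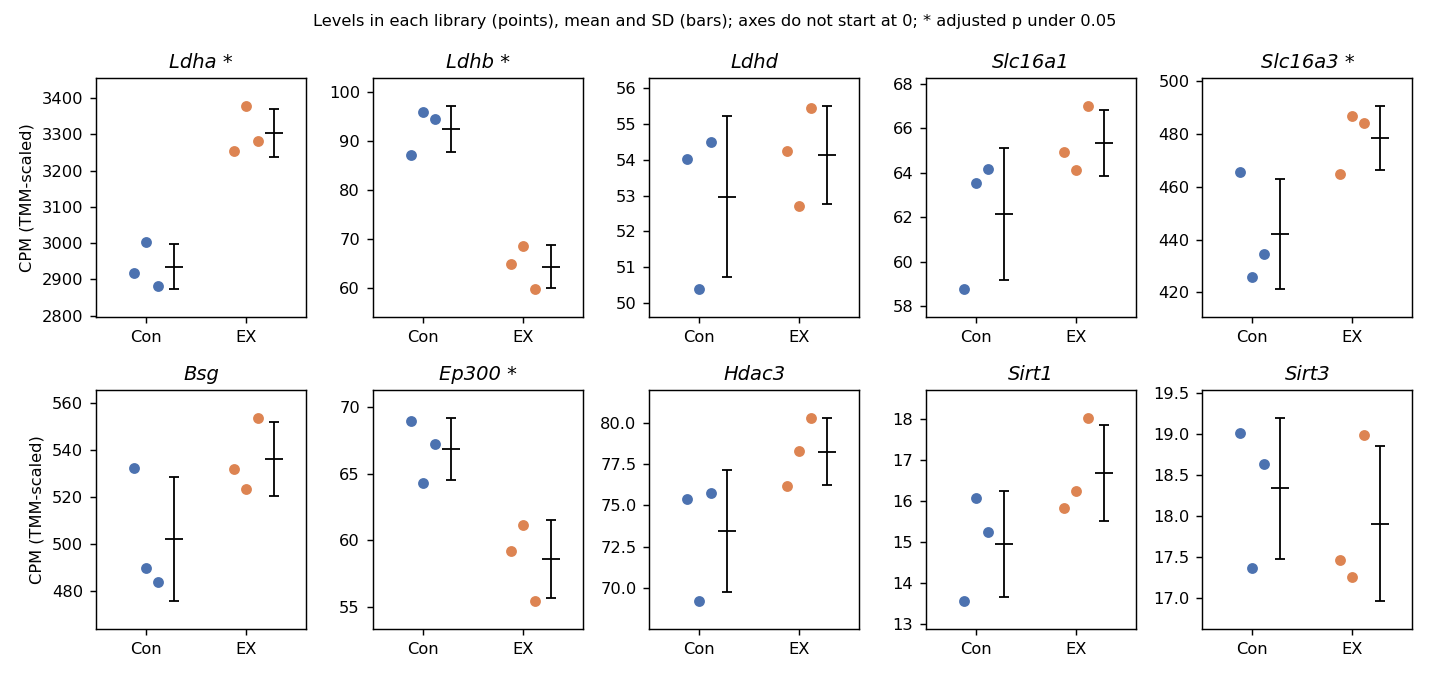
CPM (scaled by TMM, the trimmed mean of M values) of each member in the 3 Con (blue) and 3 EX (orange) libraries, with the mean and SD; each axis has its own range and does not start at 0. The Ldha and Ldhb groups stand apart in opposite directions, while for Ldhd and Sirt3 the points of both groups mix.

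Ldha stood at 2918, 3003 and 2882 CPM in Con and at 3253, 3378 and 3281 CPM in EX. Every EX library was above every Con library. The mean went from 2934 ± 61.9 to 3304 ± 65.7 CPM (SD, n = 3 each), a log2 fold change of 0.17 (SE 0.0318, edgeR adjusted p = 0.000257), which is 12.6% more. In TPM (the authors' values per transcript length, scaled to one library total) Ldha went from 3334 ± 63.4 to 3519 ± 17.9, and limma on log2(TPM + 0.1) gave 0.08 with an adjusted p of 0.112. On that scale the median of all genes tested was -0.0912, and relative to it Ldha stood at 0.169.

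Ldhb stood at 87.1, 95.9 and 94.4 CPM in Con and at 64.8, 68.5 and 59.6 CPM in EX. The highest EX library lay below the lowest Con library. The mean went from 92.5 ± 4.70 to 64.3 ± 4.46 CPM (SD, n = 3 each), so that Con was 1.44 times EX, with a log2 fold change of -0.53 (SE 0.0517, edgeR adjusted p = 1.78e-08). Ldhb passed the test under all 15 alternative settings, with log2 fold changes between -0.61 and -0.47. Its fall came beside a rise of the slow fibre, adipocyte and macrophage markers and a fall of the endothelial and Schwann cell markers. The part of these shifts in its fall was not tested.

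Because the subunits share one tetramer, their balance was taken per length, as the Ldhb share of the summed Ldha and Ldhb TPM. The share was 3.82%, 4.07% and 4.18% in Con and 2.59%, 2.64% and 2.36% in EX. The groups did not overlap, and the mean went from 4.02 ± 0.187% to 2.53 ± 0.146%, a difference of -1.49 percentage points (two-sided exact permutation test, p = 0.1, the smallest that 3 against 3 allows). In TPM, Ldha was 23.9 ± 1.18 times Ldhb in Con and 38.7 ± 2.37 times in EX.

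Ldhd encodes the mitochondrial dehydrogenase that uses D-lactate rather than L-lactate. It stood at 54.0, 50.4 and 54.5 CPM in Con and at 54.3, 52.7 and 55.4 CPM in EX, and the groups overlapped. The log2 fold change was 0.03 (SE 0.0502, edgeR adjusted p = 0.716), with a 95% interval from -0.07 to 0.13. Ldhd overlaps Znrf1 on the opposite strand in GENCODE M21, and whether the counting used strand was not stated.

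**Figure D2:**
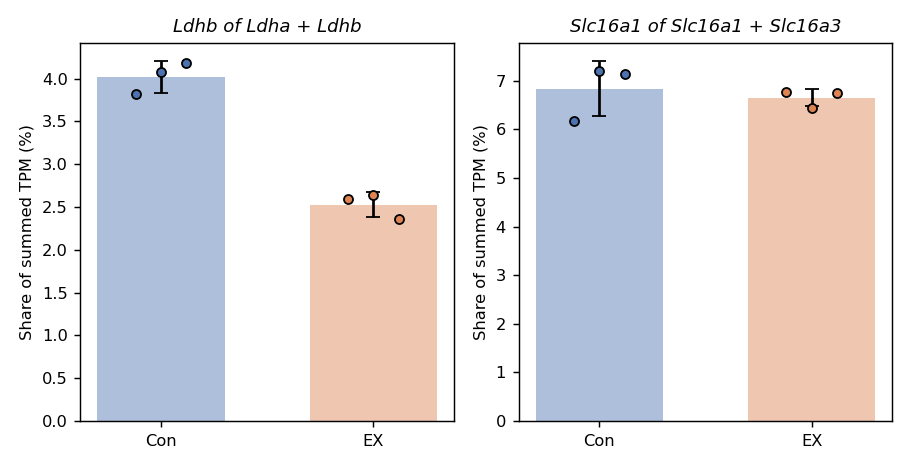
Share of Ldhb in the summed TPM of Ldha and Ldhb (left) and of Slc16a1 in that of Slc16a1 and Slc16a3 (right), in percent; bars are means of 3 libraries, error bars the SD and points the libraries. The Ldhb share fell from 4.02% in Con to 2.53% in EX with no overlap, while the Slc16a1 share was 6.84% and 6.65% with overlap.

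Slc16a3 encodes MCT4, the low-affinity carrier known for lactate release from glycolytic fibres. It stood at 465.5, 425.8 and 434.6 CPM in Con and at 464.7, 486.9 and 484.0 CPM in EX. Con 1 lay just above the lowest EX library, so the groups overlapped. The mean went from 442.0 ± 20.8 to 478.5 ± 12 CPM (SD, n = 3 each), a log2 fold change of 0.12 (SE 0.0377, edgeR adjusted p = 0.0331), or 8.31% more. The call rests on the setting: it held in 4 of 15 alternatives, with adjusted p-values from 0.000908 (edgeR without Con 1) to 0.742. DESeq2 gave a log2 fold change of 0.12 (adjusted p = 0.0532). Limma on log2(TPM + 0.1) gave 0.02 (adjusted p = 0.742), or 0.112 above the median of all genes tested.

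Slc16a1 encodes MCT1, the high-affinity carrier known for lactate uptake into oxidative fibres. Its levels were 58.8, 63.6 and 64.2 CPM in Con and 64.9, 64.1 and 67.0 CPM in EX, with 1 EX library below the highest Con library. The log2 fold change was 0.07 (SE 0.0486, edgeR adjusted p = 0.349), with a 95% interval from -0.02 to 0.17. The Slc16a1 share of the summed Slc16a1 and Slc16a3 TPM was 6.18%, 7.21% and 7.13% in Con and 6.77%, 6.44% and 6.75% in EX, a mean difference of -0.186 percentage points (two-sided exact permutation test, p = 0.6). The size rests on single libraries: without Con 1 it was -0.516 with no overlap (exact p = 0.1, the smallest possible), without Con 2, Con 3 or EX 2 it was -0.000843, -0.0417 or -0.0810, and from counts instead of TPM it was -0.336.

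Bsg stood at 532.5, 489.8 and 483.9 CPM in Con and at 531.8, 523.4 and 553.7 CPM in EX. Con 1 lay among the EX values. The log2 fold change was 0.10 (SE 0.0384, edgeR adjusted p = 0.0873), with an unadjusted 95% interval from 0.02 to 0.17. Without Con 1, the shallowest library, it was 0.14 with an edgeR adjusted p of 0.0026. With limma it was 0.04 on log2(FPKM + 0.1) (adjusted p = 0.577) and 0.0024 on log2(TPM + 0.1) (adjusted p = 0.977), or 0.0937 and 0.0936 above the median of all genes tested.

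Ep300 encodes p300, a large acetyltransferase and transcriptional coactivator. It stood at 68.9, 64.3 and 67.2 CPM in Con and at 59.2, 61.1 and 55.4 CPM in EX. All EX libraries were below all Con libraries. The mean went from 66.8 ± 2.34 to 58.6 ± 2.90 CPM (SD, n = 3 each), a log2 fold change of -0.19 (SE 0.0498, edgeR adjusted p = 0.00789). The call held in 14 of 15 alternatives; without EX 3 the log2 fold change was -0.15 with an adjusted p of 0.0828.

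Hdac3 encodes the catalytic subunit of the NCoR corepressor complex. Its levels were 75.4, 69.2 and 75.8 CPM in Con and 76.2, 78.3 and 80.3 CPM in EX. In CPM the groups did not overlap, but the gap between the highest Con and lowest EX library was small. The log2 fold change was 0.09 (SE 0.0475, edgeR adjusted p = 0.196, 95% interval from -0.00151 to 0.185). In TPM the groups overlapped, with means of 64.55 in Con and 64.45 in EX.

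Sirt1, the nuclear NAD+-dependent deacylase, stood at 13.6, 16.1 and 15.2 CPM in Con and at 15.8, 16.2 and 18.0 CPM in EX, with overlap. Its log2 fold change was 0.15 (SE 0.0843, edgeR adjusted p = 0.223; 95% interval from -0.01 to 0.32), the widest interval of the members. Sirt3, the main mitochondrial deacylase, stood at 19.0, 17.4 and 18.6 CPM in Con and at 17.5, 17.3 and 19.0 CPM in EX, again with overlap. Its log2 fold change was -0.03 (SE 0.0754, edgeR adjusted p = 0.815; 95% interval from -0.18 to 0.12). Sirt1 overlaps an antisense RNA gene, and Sirt3 overlaps Ric8a and Psmd13 on the opposite strand.

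**Figure D3:**
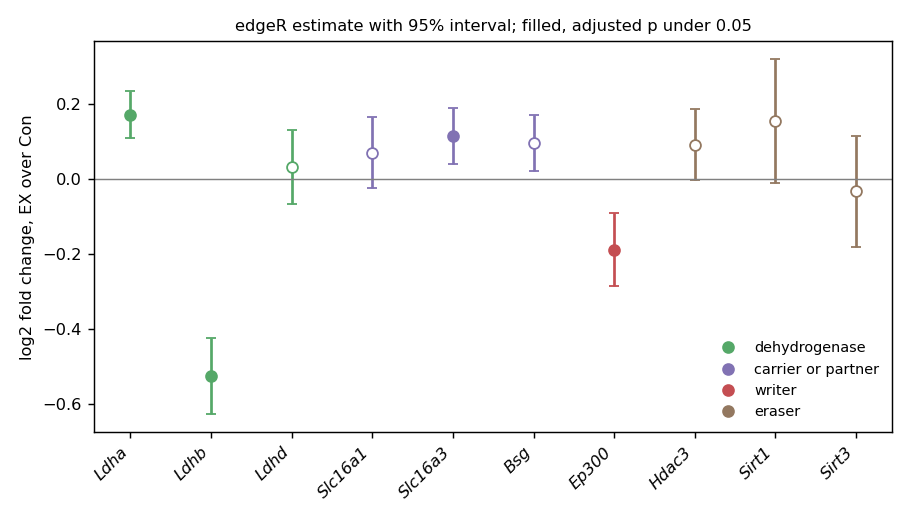
Log2 fold change of EX over Con for each member (edgeR estimate, points) with its 95% interval (bars), coloured by role; filled points have an adjusted p under 0.05. Ldhb at -0.53 lies far below the others, which lie between -0.19 and 0.17.

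Per length, the members spanned a wide range of levels. By mean TPM the order in both groups was Ldha, Bsg, Slc16a3, Ldhb, Hdac3, Ldhd, Sirt3, Slc16a1, Ep300 and Sirt1. Ldha ranked 25 among all genes by TPM, and was 4.87 times Bsg in Con and 5.13 times in EX. Slc16a3 was 13.7 ± 1.29 times Slc16a1 in Con and 14.0 ± 0.419 times in EX. The values of Sirt3 and Slc16a1 overlapped in EX, and all other neighbours in the order were separated in both groups. At the low end Sirt1 stood at 6.16 TPM in Con and 6.52 TPM in EX, and Ep300 at 11.7 and 9.65 TPM.

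The members were then set beside 12 lists of genes of the same pathways, with 95 genes in all, members included. Of these, 79 were tested, and 16 rose and 9 fell (31.6%, against 17.9% of all genes tested). The split depends on the scaling, with 12 higher and 12 lower when totals left out the 20 most abundant genes. With limma, which changes the test and the scale together, the share was nearer to that of all genes: it called 3 higher and 9 lower on log2(FPKM + 0.1) (15.2%, against 13.3% of all genes tested), and 2 higher and 15 lower on log2(TPM + 0.1) (21.5%, against 18.6%). Without the 10 members, 14 of 69 rose and 7 fell (30.4%). The median log2 fold change of the 79 was 0.0491, and that of all genes tested -0.000927. The lists were chosen with earlier results of these data known. The shares here and by list below therefore describe the lists and test nothing.

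The list of lactylation writers also counted Acss2, a maker of acyl-CoA. Of its 10 genes 3 fell, against 8.80% of all genes tested, and none rose, with a median of -0.08. Beside Ep300 these were its paralog Crebbp, from 42.9 to 38.2 CPM (log2 fold change -0.17, SE 0.0552, edgeR adjusted p = 0.0327; called in 5 of 14 alternatives), and Acss2, which makes acetyl-CoA and, reportedly, lactyl-CoA, from 45.7 to 39.3 CPM (-0.21, SE 0.0569, adjusted p = 0.00813). The alanyl-tRNA synthetases, described as lactyltransferases, did not pass: Aars1 had a log2 fold change of -0.08 and Aars2 of 0.10. Among the 7 erasers 1 was called higher, against 9.11% of all genes tested. This was Hdac8, from 17.0 to 20.6 CPM (0.27, SE 0.0765, edgeR adjusted p = 0.0131; called in 8 of 14 alternatives). Its sign turned in 3 alternatives, and on the authors' length-scaled values it was lower in EX, at 5.92 TPM against 6.91 TPM in Con, so its direction depends on the scale. Hdac1 (-0.02), Hdac2 (0.09) and Sirt2 (0.01) did not pass, nor did any of the 6 tested genes of the HDAC3 complex, Ncor1 included (-0.05), or of the 4 other sirtuins.

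Of the 4 carriers and partners tested, Slc16a3 and Nptn, a partner protein related to basigin, rose, against 9.11% of all genes tested. These calls held in 4 and 5 of 15 alternatives. Nptn went from 113.5 to 124.3 CPM (log2 fold change 0.13, SE 0.0417, edgeR adjusted p = 0.0284). Slc16a7 (MCT2) had between 5 and 14 counts and Emb between 15 and 31, both under the filter. None of 4 other SLC16 genes tested passed, and of the 4 genes of the methylglyoxal route to D-lactate, with Glo1 (0.04) and Hagh (0.13), none did.

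NAD+ is the cofactor of both the dehydrogenases and the sirtuins. Of 10 genes of its supply, Nmrk2, the muscle nicotinamide riboside kinase, had the largest change of the list genes tested: 180.3, 188.9 and 177.4 CPM in Con and 334.6, 344.8 and 333.9 CPM in EX. The groups were far apart (log2 fold change 0.89, SE 0.0380, edgeR adjusted p = 2.73e-16). Parp1 rose by 0.13 on the log2 scale and Cd38, an NAD+ glycohydrolase, had a log2 fold change of -0.25 (edgeR adjusted p = 0.0360 and 0.0153), with Parp1 called in 2 of 15 alternatives and Cd38 in 12.

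Of 10 genes that supply or use pyruvate, 5 were called higher and 1 lower, against 9.11% and 8.80% of all genes tested. Pcx, which carboxylates pyruvate to oxaloacetate, went from 100.6 to 122.3 CPM (log2 fold change 0.28, edgeR adjusted p = 1.13e-05). Pkm, which makes pyruvate, went from 4729 to 5171 CPM (0.13, adjusted p = 0.00383), Pdhb, Me1 and the pyruvate carrier gene Mpc2 rose by 0.18, 0.14 and 0.12, and Me3 fell by 0.14; Pkm was called in 11, Pdhb and Me1 each in 12, Mpc2 in 5 and Me3 in 8 of 15 alternatives. Mpc1, the partner of Mpc2, had a log2 fold change of 0.09 (edgeR adjusted p = 0.113). Of 8 genes of the NADH shuttles, which compete with lactate dehydrogenase for cytosolic NADH, Gpd1 (0.20), Slc25a11 (0.17), Got2 (0.16) and Mdh1 (0.15) rose and none fell. Gpd1 was called in 14 and the other 3 in 12 of 15 alternatives. Of 10 regulators of the dehydrogenase and carrier genes Myc rose (0.36; called in 6 of 14 alternatives), and Ppara (-0.52), Esrrg (-0.31) and Epas1 (-0.13; called in 12 of 15) fell, with Ppara going from 19.5 to 13.7 CPM (edgeR adjusted p = 1.37e-05).

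**Figure D4:**
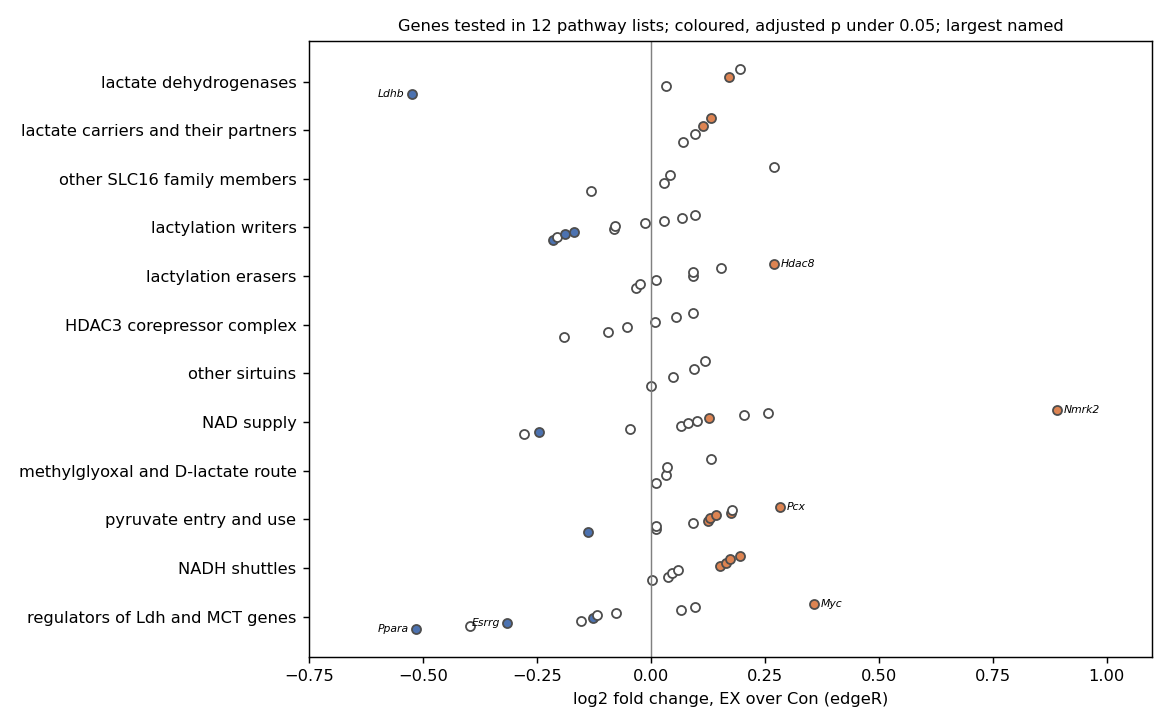
Log2 fold change of EX over Con (edgeR) for the 79 genes tested in the pathway lists, one list per line; orange points rose and blue points fell at an adjusted p under 0.05, and open points did not pass. Nmrk2 stands alone on the right at 0.89, and Ldhb and Ppara on the left at -0.53 and -0.52.

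**Figure D5:**
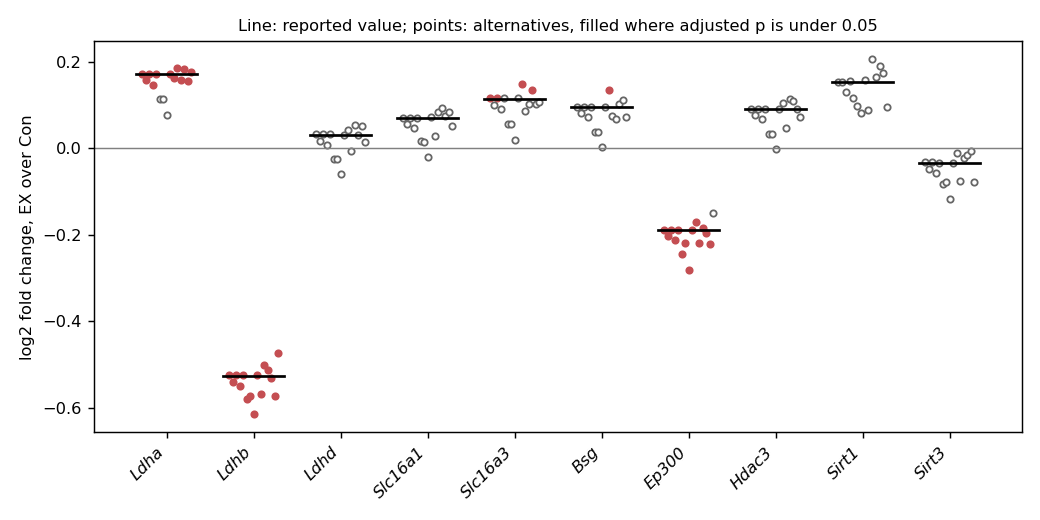
Log2 fold change of each member as reported (line) and under each alternative setting (points, filled where the adjusted p is under 0.05). The Ldhb points stay between -0.61 and -0.47, all filled, while those of Slc16a3 are filled in 4 of 15.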

How the data were processed

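Per the study's methods, reads of 150 bases were filtered and aligned to GRCm39 with HISAT, whereas the submitters' processing notes name GRCm38.p6, cutadapt, MultiQC and featureCounts; both are given as stated. The authors deposited 1 table of estimated counts per gene and library (4.18 to 4.44% of values not whole; rounded here). FPKM were computed by the authors per kilobase and library depth. TPM, computed by the authors per kilobase and scaled to one total in each library, served here for levels between genes. Group means in the table were not used. Genes reaching a mean of 1 FPKM were tested with edgeR 4.0.16 (R 4.3.3; TMM, quasi-likelihood, no covariates, two-sided, Benjamini-Hochberg over all 10883 genes); the SE was derived from the log2 fold change and its F statistic. Alternatives were other scalings and filters, DESeq2 1.42.0, limma 3.58.1 on log2 FPKM or TPM, a replicate block and leaving out each library. Scripts were tested on simulated data. Named were all members, every pathway-list gene past the threshold and fixed relatives. The members and lists were chosen with earlier results of these data known. Same-numbered libraries deviated with correlations of -0.0841, -0.0518 and -0.0727, so the numbers pair nothing. P-values measure the spread between these 6 mice. The common edgeR estimate of that spread over genes (biological coefficient of variation) was 0.0328. Gene overlaps are from GENCODE M21.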

Additional observations from a re-analysis of the deposited data

How the results depend on the processing

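Ldhb passed under all 15 alternatives, Ep300 in 14, Ldha in 12 and Slc16a3 in 4. Over all alternatives and members, 127 values kept direction and side of the threshold, 15 lost the call, 1 gained it (Bsg without Con 1) and 6 uncalled values changed sign. The sign changes were Ldhd with limma on log2(FPKM + 0.1) (-0.02512), log2(FPKM + 1) (-0.0241) and log2(TPM + 0.1) (-0.06007) and without Con 2 (-0.006742; the range with a library left out reached 0.05295), and with limma on log2(TPM + 0.1) Slc16a1 (-0.019) and Hdac3 (-0.001126). The limma scales shifted all genes, with medians of -0.0559, -0.0487 and -0.0912; relative to these Ldhd stood at 0.0308, 0.0246 and 0.0311, and on TPM Slc16a1 at 0.0722 and Hdac3 at 0.0901, so under limma none of these signs turned relative to the median. Of the 2 members called higher, 1 (Ldha) was called with the 5 FPKM filter, with totals without the 20 most abundant genes, with DESeq2 and with the replicate block, and 0 with limma on either FPKM scale or on TPM; leaving out each library gave 1 to 3 higher and 1 to 2 lower, the 1 being without EX 3. For the pathway lists, 16 higher became 10 with DESeq2, 3 with limma on either FPKM scale and 2 on TPM, and 11 to 15 with a library left out; 9 lower became 15 with limma on TPM, and 5 to 10 with a library left out (5 without Con 2 or EX 2). The Ldhb share difference was -1.146 points from counts and -1.597 to -1.411 with a library left out; the Slc16a1 share difference was -0.516 to -0.000843. With a replicate block the Ldhb share difference was -1.494 (exact sign-flip test, p = 0.25), and 909 genes were called higher and 873 lower, against 991 and 958 without it; Slc16a3, Crebbp, Parp1 and Me3 lost their calls (adjusted p = 0.0522, 0.0533, 0.0571 and 0.0558). The split moved to 772 higher and 1259 lower with totals without the 20 most abundant genes, to 411 and 1037 with limma on log2(FPKM + 0.1), 411 and 1032 on log2(FPKM + 1), and 340 and 1684 on log2(TPM + 0.1); DESeq2 called 643 and 585. The SE with 3 mice per group differed between genes: Slc16a3 was called at 0.12 (SE 0.0377), while Sirt1, the least abundant member, was not at 0.15 (SE 0.0843).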
